A study of Mus musculus with 6 samples.

Results

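The 43 interferon-stimulated genes described here did not move as 1 block in primary hepatocytes of alcohol-fed S100a16KO+/- mice. Relative to alcohol-fed WT mice, 8 were lower (Igtp, Oasl1, Irf1, Ddx58, Irf9, Irgm1, Irgm2 and Trim25), 4 were higher (Isg20, Irf8, Mx2 and Samhd1), and 31 did not pass the threshold. By the same threshold 11.2% of all 15957 tested genes were lower and 11.6% were higher, so differences in both directions were not particular to the members. The largest differences were those of Isg20, at 2.60 times its WT level, and of Oasl1 and Igtp, at 62.8% and 63.4% of theirs. The members were set by name as a list of classical targets of interferon signalling, chosen with earlier results of these data known. All 43 names were found among the 25718 genes of the deposited table. Of the 43, all passed the filter on low counts, so every member was tested.

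RNA was sequenced from isolated primary hepatocytes, the main cell type of the liver, with 3 libraries per genotype. Both groups were male mice of 8 to 10 weeks fed a control liquid diet for 5 days and then a liquid diet with 5% ethanol for 10 days; a single dose of ethanol (5 g/kg) was gavaged 9 h before the cells were taken. There is no group on the control diet among these libraries, so the values compare genotypes under alcohol and do not show what alcohol changed. The S100a16KO+/- mice carried 1 deleted allele of S100a16, a calcium-binding protein gene, removed by EIIa-Cre, a Cre transgene active in the early embryo, so the deletion is not limited to hepatocytes. The labels call the same samples S100A16 knockdown. The hepatocytes were isolated by collagenase perfusion and separated on Percoll. The study's methods describe, in general, keeping such cells in a medium with serum, and whether the sequenced cells were cultured first is not given in the sources used here.

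Interferons are secreted proteins that cells release after sensing foreign or misplaced nucleic acid. Type I interferons bind the receptor made of IFNAR1 and IFNAR2, and interferon gamma binds IFNGR1 and IFNGR2; the receptors activate JAK kinases, which phosphorylate STAT proteins. The type I branch acts through a complex with STAT2 and IRF9 that binds the interferon-stimulated response element, while the interferon gamma branch acts through the gamma-activated site. The genes so induced encode sensors, antiviral effectors, guanosine triphosphatases that attack intracellular parasites and enzymes that attach ISG15 or ADP-ribose, and hepatocytes, Kupffer cells and sinusoidal endothelium all respond.

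A library held from 67658095 to 71807834 estimated counts in total, and about 4 of them may stand for 1 sequenced fragment, since in WT replicate 1, for example, 936 genes had 4 counts, 561 had 3 and 259 had 5. S100a16 itself stood at 15.3 ± 0.796 CPM (CPM, the count scaled by library size after TMM normalisation; SD, n = 3) in WT and 5.80 ± 0.628 CPM (n = 3) in S100a16KO+/- hepatocytes. Hepatocyte markers dominated all 6 libraries, and their sum in S100a16KO+/- was 97.4% of that in WT. Alb, the albumin gene, made up most of that sum (88524 CPM in WT on average), and of the 9 marker genes Ttr (79.7% of WT) and Cyp2e1 (79.5%) were lower and Fgb (141%) was higher. Markers of other cells were also read. Their sums were higher in S100a16KO+/- for sinusoidal endothelium (147% of WT), stellate cells (178%), dendritic cells (182%), neutrophils (145.5%) and leukocytes in general (131%). The sum for Kupffer cells and macrophages (115%) was also higher, and that for red blood cells (10.4%) was lower. Haemoglobin genes made up most of the red blood cell sum and stood at 8.44% to 9.27% of WT, while Alas2 of the same list stood at 61.6%. In bulk RNA, fewer cells of a type and less RNA per cell cannot be told apart. The labels do not say that the libraries of a genotype came from separate animals, and p-values then measure only the spread between these libraries.

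Differences between genotypes were tested with edgeR's quasi-likelihood test, and a gene is called when its Benjamini-Hochberg adjusted p over all 15957 tested genes was under 0.05. By this rule 12 of the 43 members were called, beside 22.8% of all tested genes. The 4 higher members stand beside a background of 11.6% of tested genes called higher, and the 8 lower members beside a background of 11.2% called lower. The same shares apply to the counts by role, pathway list and marker list given below, and no list was tested. With the study's criterion, which asks for a fold change of at least 2 with an unadjusted p under 0.05, only Isg20 among the members qualified, beside 4.52% of tested genes. In 19 members the libraries of the genotypes did not overlap (6 higher, 13 lower), beside 37.9% of tested genes. The median log2 fold change was -0.08 over the members and 0.01 over all tested genes, with members from -0.67 (Oasl1) to 1.38 (Isg20). An unadjusted p under 0.05 was reached by 16 members.

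**Figure D1:**
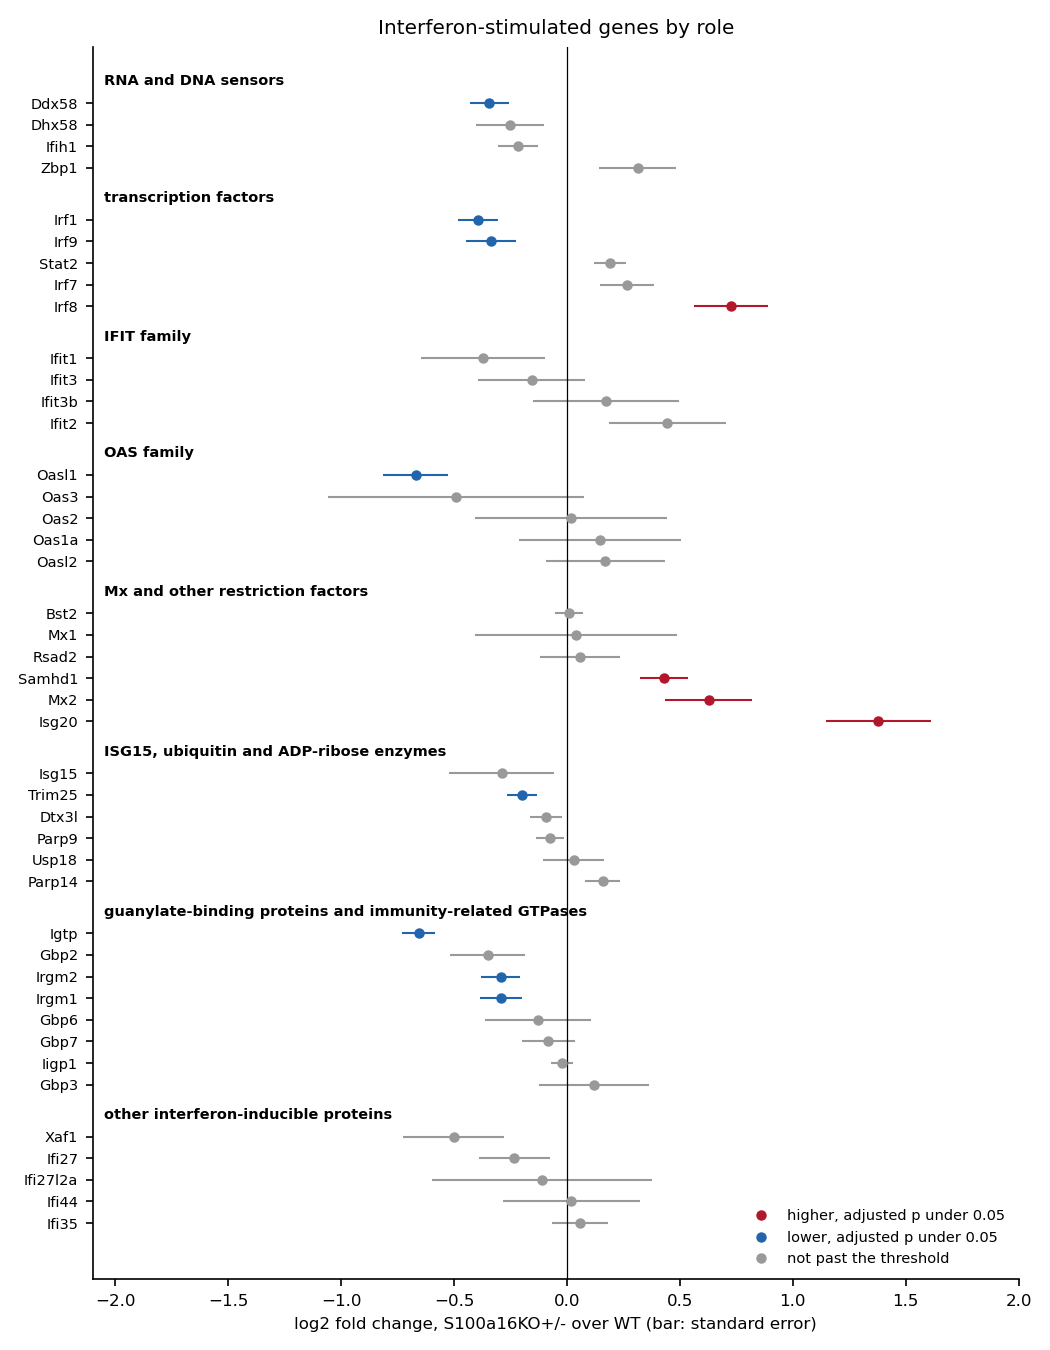
Log2 fold change of each of the 43 members between S100a16KO+/- and WT hepatocytes, with its standard error, grouped by role; red and blue points had an adjusted p under 0.05. Called members lie on both sides of 0: 4 are higher, 3 of them among the restriction factors, and 8 are lower, 3 of them among the immunity-related GTPases. Of all tested genes, 11.6% were called higher and 11.2% lower.

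Promoter sequence was compared because the members are defined by their induction through particular elements. RefSeq windows on GRCm38.p6, from 250 bases before to 50 bases after the annotated start, matched 31 of the 43 members by symbol, some with several starts. The interferon-stimulated response element was searched as GAAANNGAAA on both strands, and the gamma-activated site as TTCNNNGAA, which reads the same on both strands. The first occurred in a window of 17 of the 31 members, and in 3.99% of the 27025 genes with a window. The second occurred in 11 of the 31 members, and in 9.55% of those genes. Of the members with a window, 4 of the 8 that were lower held a response element (Ddx58, Igtp, Irgm1 and Irgm2), as did 13 of the 20 that were not called and 0 of the 3 that were higher. A gamma-activated site was found in 3 of the 8 lower members (Igtp, Irf1 and Irgm2), in 5 of the 20 not called and in all 3 higher members (Irf8, Isg20 and Samhd1). A match is a run of letters, not a site shown to be bound.

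Stretches upstream of the RefSeq start are printed below for members of each kind, 5′ to 3′ on the strand of the gene, with matches to either motif in capitals. The 3 immunity-related GTPase genes that were lower have a response element within 75 bases of the RefSeq start. The RefSeq start of Irgm2 lies within the span annotated for the gene, and the bases just after it were found in no GENCODE M21 transcript of Irgm2. The same holds for the bases after the RefSeq start of Bst2, so the place of both stretches rests on RefSeq alone. Igtp lies at chr11:58199491-58199551 (+), Irgm2 at chr11:58214882-58214942 (+) and Irgm1 at chr11:48871421-48871470 (-).
Igtp: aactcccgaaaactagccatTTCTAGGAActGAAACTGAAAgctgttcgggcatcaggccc
Irgm2: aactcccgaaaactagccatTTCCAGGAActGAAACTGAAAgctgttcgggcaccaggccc
Irgm1: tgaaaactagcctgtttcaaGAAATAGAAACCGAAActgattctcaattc
The stretches of Igtp and Irgm2 differ at 2 of 61 bases and carry a gamma-activated site directly before the response element. In Irgm1 2 overlapping copies of the response element run from position -30 to -15, where -1 is the base before the start.

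Irf1, which was lower, and the 3 members with a window that were higher hold a gamma-activated site without a response element. Irf1 lies at chr11:53769904-53769952 (+), Irf8 at chr8:120736167-120736233 (+), Isg20 at chr7:78913331-78913379 (+) and Samhd1 at chr2:157135303-157135346 (-).
Irf1: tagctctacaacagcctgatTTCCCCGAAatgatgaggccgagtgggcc
Irf8: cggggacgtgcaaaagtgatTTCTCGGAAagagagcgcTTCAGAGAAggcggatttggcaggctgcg
Isg20: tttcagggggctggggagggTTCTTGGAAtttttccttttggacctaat
Samhd1: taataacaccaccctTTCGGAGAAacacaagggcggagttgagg
Irf8 carries the motif at 2 positions, -171 to -163 and -153 to -145.

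Members with a response element that were not called include the most abundant one, Bst2, and the reference genes of the response, Isg15 and Ifit1. Bst2 lies at chr8:71537567-71537628 (-), Isg15 at chr4:156200855-156200916 (-) and Ifit1 at chr19:34640765-34640833 (+).
Bst2: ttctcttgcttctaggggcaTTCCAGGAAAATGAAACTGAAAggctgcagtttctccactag
Isg15: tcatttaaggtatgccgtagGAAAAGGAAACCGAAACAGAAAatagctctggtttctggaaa
Ifit1: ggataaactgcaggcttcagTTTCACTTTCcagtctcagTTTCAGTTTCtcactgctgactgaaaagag
In Isg15 the capitals are 3 overlapping response elements, and in Ifit1 they are 2 elements on the opposite strand. In Bst2 they are 2 response elements that overlap each other, and a gamma-activated site that overlaps only the first of them.

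The members covered a wide range of levels. In FPKM, a level scaled for transcript length and library depth that allows levels of different genes to be compared, 26 members had a mean of at least 1 over the 6 libraries, 7 of at least 5 and 3 of at least 10. The order was led by Bst2 at 62.7 FPKM, Iigp1 at 22.1, Ifi27 at 16.5, Igtp at 9.73 and Trim25 at 8.44, and ended with Mx1 at 0.133 and Oas3 at 0.0486. Bst2 encodes tetherin, which holds budding virus at the cell surface. Its levels were 59.6, 61.1 and 66.3 FPKM in WT and 62.6, 63.2 and 63.2 FPKM in S100a16KO+/- libraries, and the genotypes overlapped. The classical reference genes of an interferon response were low: Ifit1 had 0.593 ± 0.0985 FPKM in WT, Rsad2 0.690 ± 0.109 and Isg15 2.95 ± 0.649 (SD, n = 3 each). In order of level, Bst2, Iigp1 and Ifi27 did not overlap one another, although the highest Ifi27 value, 20.2 FPKM in WT, stood close under the lowest Iigp1 value, 20.7 FPKM in S100a16KO+/-. The lowest Ifi27 value, 11.3 FPKM, lay within the range of Igtp, and neighbours further down such as Ifi35 (6.64 FPKM) and Parp9 (5.95 FPKM) overlapped.

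**Figure D2:**
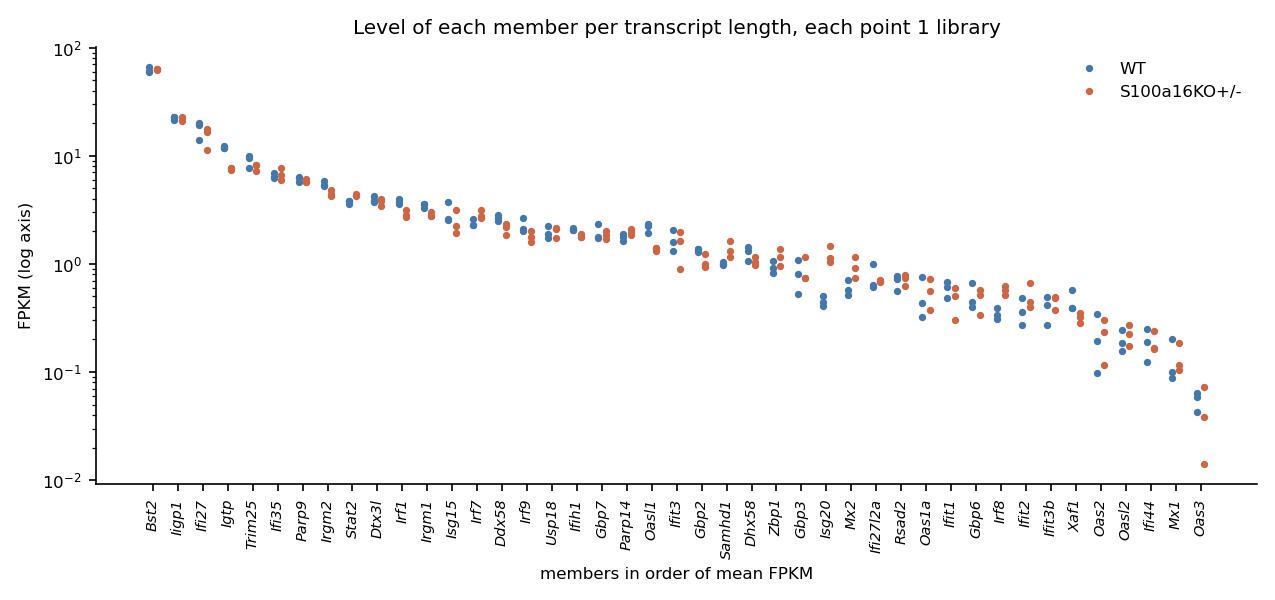
FPKM of each member on a log axis, members in order of their mean, each point 1 of 3 libraries of WT (blue) or S100a16KO+/- (orange). Bst2 leads at 62.7 FPKM, 17 members lie under a mean of 1 FPKM, and the points of a genotype spread more widely toward the low end.

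The spread between libraries set how small a difference could be called. Over the members the coefficient of variation of CPM had a median of 12.2% among WT and 12.1% among S100a16KO+/- libraries. For the 14 members with a mean of at least 1000 counts the median standard error of the log2 fold change was 0.08, and 6 were called. For the 7 members with a mean under 100 counts (Ifit3b, Oas1a, Oas2, Oas3, Ifi27l2a, Ifi44 and Mx1) it was 0.42, and 0 were called by edgeR, with 0 at an unadjusted p under 0.05 and 0 by DESeq2. A difference had to be several times its standard error to be called, so for these members differences well above 0.42 could also go uncalled at this depth.

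Upstream of the members, transcripts of the 4 interferon genes in the deposited table were not detectable above the counting limit at this depth. These were Ifna4, Ifnk, Ifnz and Ifng, of 21 interferon genes searched for. The others had no row, so their level is not known. None of the 4 exceeded 8 estimated counts in a library. That is under the 12 counts that a count of 0 would allow at about 4 counts a fragment, a limit that covers counting error only. Among the receptor genes, Ifnar1, a chain of the type I receptor, was higher in S100a16KO+/-, with 32.9, 33.8 and 34.7 CPM against 22.3, 21.1 and 24.3 CPM in WT. The log2 fold change was 0.58 (standard error 0.07, edgeR adjusted p = 3.60e-05), and the lowest S100a16KO+/- library exceeded the highest WT library. Il10rb, a chain shared by the type III interferon and interleukin-10 receptors, had 6.08, 5.74 and 6.91 CPM against 3.90, 4.82 and 4.72 CPM, a log2 fold change of 0.48 (standard error 0.14, edgeR adjusted p = 0.0267). The Il10rb call was lost in 7 of 15 alternative settings, with adjusted p-values of 0.094 and 0.0543 without WT replicate 1 and 3, and of 0.0584 and 0.117 without S100a16KO+/- replicate 1 and 3. Ifnar2, the partner of Ifnar1, had 76.8, 83.6 and 73.2 CPM against 78.4, 68.4 and 79.4 CPM and was not called. The interferon gamma receptor genes Ifngr1 and Ifngr2 had log2 fold changes of -0.12 and -0.28 and were not called either. Ifnlr1, the specific chain of the type III receptor, did not pass the filter, with at most 8 counts.

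Behind the receptors, 1 of the 3 kinase genes was called. Jak1, a kinase used by all interferon receptors, was higher by little, with 83.9, 83.5 and 84.7 CPM against 75.6, 73.5 and 77.4 CPM (log2 fold change 0.15, standard error 0.05, edgeR adjusted p = 0.0482). The call was lost in 12 of 15 alternative settings and whichever library was left out, with adjusted p-values from 0.062 without S100a16KO+/- replicate 2 to 0.166 without WT replicate 2. Tyk2 and Jak2, the kinases paired with it, had log2 fold changes of 0.21 and -0.06 and were not called.

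Of 9 regulators that restrain the pathway, 2 were higher and 1 was lower, beside 11.6% and 11.2% of all tested genes. Socs3, an inhibitor of JAK kinases that is induced above all by interleukin-6 signalling, had 17.0, 17.5 and 19.1 CPM in S100a16KO+/- and 7.58, 6.24 and 6.01 CPM in WT libraries. This difference was as large as that of any member, with a log2 fold change of 1.43 (standard error 0.11, edgeR adjusted p = 3.03e-07). Irf2bp2, a corepressor of IRF2, was higher by 0.35 on the log2 scale, and Ptpn11, a phosphatase, fell by 0.22 on the log2 scale, with an edgeR adjusted p of 0.0487. The Ptpn11 call was lost in 11 of 15 alternative settings, with adjusted p-values of 0.0575, 0.122 and 0.17 without WT replicate 1, 2 and 3, and of 0.14 and 0.0689 without S100a16KO+/- replicate 2 and 3. Socs1, the inhibitor most closely tied to interferon gamma, was at 20 to 56 counts and was not called.

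**Figure D3:**
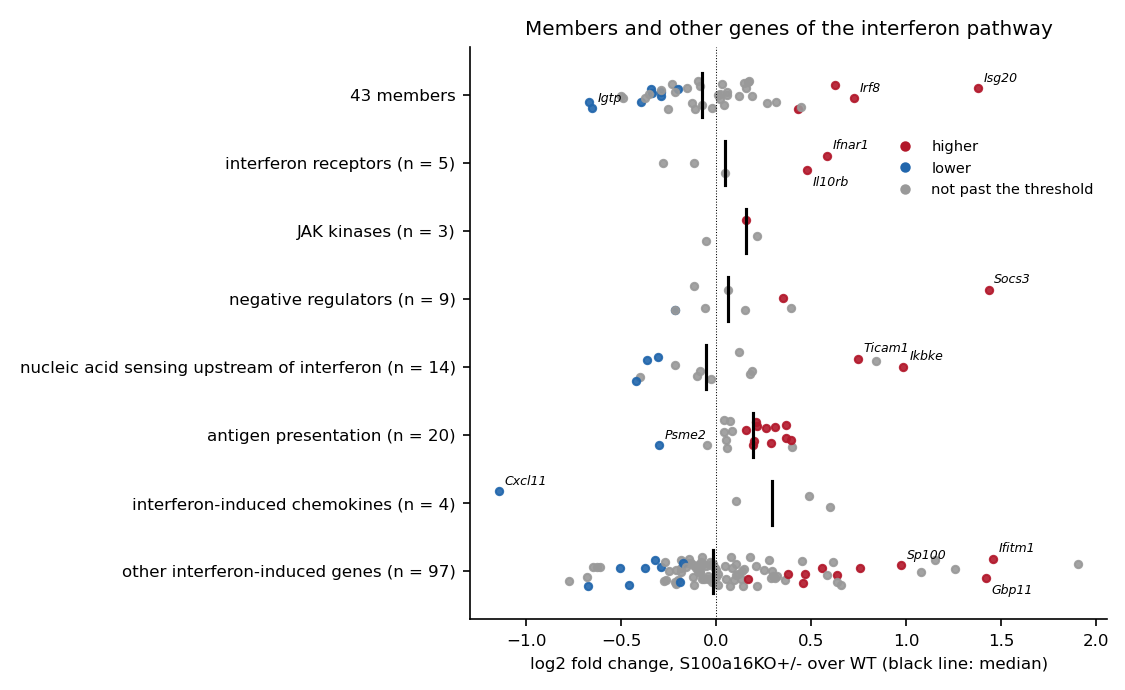
Log2 fold change between S100a16KO+/- and WT hepatocytes for the 43 members and for tested genes of 7 further lists of the interferon pathway, each point 1 gene and each black line the median of its list. Antigen presentation genes have a median of 0.19, with 11 genes higher and Psme2 lower, whereas the members and the other interferon-induced genes have medians of -0.08 and -0.02.

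Of the 5 transcription factor genes among the members, 2 were lower, 1 was higher and 2 were not called. Among all tested genes 11.2% were lower and 11.6% higher. Irf1, an activator that is itself an early target of interferon gamma, had 16.9, 16.2 and 17.6 CPM in WT and 13.8, 12.7 and 12.1 CPM in S100a16KO+/- libraries. The groups did not overlap, and the log2 fold change was -0.40 (standard error 0.09, edgeR adjusted p = 0.00478). Irf9, the DNA-binding subunit of the type I complex, had 13.5, 15.5 and 12.1 CPM in WT and 11.98, 10.2 and 10.4 CPM in S100a16KO+/- libraries, so that the groups lay apart by a narrow margin. Its log2 fold change was -0.34 (standard error 0.11, edgeR adjusted p = 0.0421), and it overlaps Rnf31 on the same strand. Leaving out a library ended this call for WT replicate 1 (edgeR adjusted p = 0.0845), WT replicate 2 (0.203), S100a16KO+/- replicate 2 (0.111) and S100a16KO+/- replicate 3 (0.14).

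Stat2 and Irf7 were not called, although every S100a16KO+/- library of Stat2 exceeded every WT library. Stat2, a subunit of the type I complex, had 26.8, 24.7 and 23.6 CPM in WT and 28.0, 29.5 and 28.0 CPM in S100a16KO+/- libraries. Its log2 fold change was 0.19 (standard error 0.07, edgeR adjusted p = 0.0747); without WT replicate 1 it passed, with an adjusted p of 0.0437. Of the subunits Irf9 and Stat2, the first was thus lower and the second was not called. Irf7, the factor that amplifies type I interferon production, ranged from 9.33 to 11.6 CPM in WT and from 11.1 to 14.1 CPM in S100a16KO+/- libraries, which overlap.

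Irf8 was the transcription factor gene that was higher. It encodes a factor needed for dendritic cells and macrophages, and its WT level of 0.344 ± 0.0421 FPKM (SD, n = 3) was low. Its libraries read 2.56, 3.00 and 2.63 CPM in WT and 4.88, 4.79 and 3.89 CPM in S100a16KO+/-. All S100a16KO+/- libraries were higher, with a log2 fold change of 0.73 (standard error 0.17, edgeR adjusted p = 0.00542).

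The 4 nucleic acid sensors among the members were low to moderate in level, and 1 was called. Ddx58, which encodes RIG-I, the sensor of short double-stranded RNA with a free 5′ triphosphate, had 22.2, 21.7 and 19.6 CPM in WT and 16.9, 15.4 and 17.7 CPM in S100a16KO+/- libraries. The highest S100a16KO+/- library stayed below the lowest WT library, and the log2 fold change was -0.34 (standard error 0.09, edgeR adjusted p = 0.0105). Ifih1, which encodes the long RNA sensor MDA5, ran from 18.1 to 20.7 CPM in WT and from 15.4 to 17.1 CPM in S100a16KO+/- libraries. The groups of Ifih1 did not overlap either, but its edgeR adjusted p was 0.0926. Dhx58, the regulator LGP2, and Zbp1, a sensor of Z-form nucleic acid, overlapped between genotypes and were not called.

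Among 14 tested genes that act with these sensors, 2 were higher and 3 were lower, beside 11.6% and 11.2% of all tested genes. Mavs, the mitochondrial adaptor of RIG-I and MDA5, had 33.4, 36.5 and 34.5 CPM in S100a16KO+/- and 45.5, 45.7 and 43.3 CPM in WT libraries, a log2 fold change of -0.37 (standard error 0.06, edgeR adjusted p = 0.000444). Traf6, a ubiquitin ligase of the same route, was also lower, with a log2 fold change of -0.42, and the log2 fold change of the kinase gene Tbk1, also called lower, was -0.31. The Traf6 call was lost without WT replicate 2 (adjusted p = 0.0986) and without S100a16KO+/- replicate 1 and 2 (0.0833 and 0.0627). That of Tbk1 was lost without WT replicate 2 and 3 (0.0517 and 0.101) and without S100a16KO+/- replicate 2 and 3 (0.056 and 0.0563). Ikbke, which encodes the kinase related to TBK1, went the other way, with 28.2, 32.2 and 34.6 CPM against 16.4, 16.1 and 15.4 CPM in WT, a log2 fold change of 0.99 (standard error 0.08, edgeR adjusted p = 1.00e-06). Ticam1, the adaptor of Toll-like receptor 3, had a log2 fold change of 0.75.

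The immunity-related GTPases and guanylate-binding proteins, which disrupt the vacuoles of intracellular parasites, held 3 of the 8 lower members among 8 genes. Of all tested genes, 11.2% were called lower. Igtp, also called Irgm3, had the smallest p-value of all members. It lies on chromosome 11 from 58199556 to 58207591 (GRCm38, plus strand) and read 27.9, 26.8 and 26.2 CPM in WT and 17.1, 17.6 and 16.6 CPM in S100a16KO+/- libraries. The gap between the groups was several times the spread within them, with a log2 fold change of -0.66 (standard error 0.07, edgeR adjusted p = 1.39e-05). Irgm2, annotated from 58199618 to 58222782, overlaps Igtp on the same strand, and 15.9% of the 31-base words of Igtp occur in Irgm2, and reads may have been shared out between them. Irgm2 read 25.3, 21.7 and 21.2 CPM in WT and 17.8, 18.7 and 19.2 CPM in S100a16KO+/- libraries.

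Irgm1, the regulatory GTPase of the family, lies elsewhere on chromosome 11 and shares 2.20% of its words with other genes. It read 24.4, 20.8 and 22.98 CPM in WT and 17.8, 20.6 and 17.3 CPM in S100a16KO+/- libraries. The log2 fold changes of Irgm1 and Irgm2 were both -0.29 (standard error 0.09 each), with edgeR adjusted p-values of 0.0326 and 0.0245. Both calls were lost when single libraries were left out, with log2 fold changes between -0.37 and -0.24 for Irgm1 and between -0.34 and -0.21 for Irgm2. Without WT replicate 1 the adjusted p was 0.124 for Irgm1 and 0.119 for Irgm2, and without S100a16KO+/- replicate 3 it was 0.135 for Irgm1 and 0.0509 for Irgm2. Without S100a16KO+/- replicate 1 it was 0.103 and 0.0833, and without WT replicate 3 it was 0.0986 for Irgm1.

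Iigp1, the most abundant gene of the family and an effector of vacuole lysis, did not follow Igtp. It read 146, 144 and 145 CPM in WT and 143 CPM in each S100a16KO+/- library, a log2 fold change of -0.02 (standard error 0.05) that was not called. The guanylate-binding protein genes Gbp2, Gbp3, Gbp6 and Gbp7 were not called. Gbp2 came closest, at 3.77 to 3.87 CPM in WT and 2.55 to 3.43 CPM in S100a16KO+/- libraries without overlap. Of the words of Gbp6, 74.2% occur in other genes, chiefly Gm43302, so its level is uncertain.

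By position, of the 8 members on chromosome 11, 5 were lower (Igtp, Irgm1, Irgm2, Irf1 and Trim25) and 0 were higher by edgeR, beside 13.6% of the 1224 tested genes there called lower and 9.97% called higher. The 5 fell to 2 (Igtp and Irf1) without S100a16KO+/- replicate 1 and likewise without S100a16KO+/- replicate 3, and to 3 without WT replicate 1 and without WT replicate 3. Chromosome 5 held 6 members, of which Oasl1 was lower, chromosome 16 held 5, of which Mx2 was higher, and the 4 on chromosome 19, the IFIT genes, and the 4 on chromosome 3 held none that was called.

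The 2′-5′ oligoadenylate synthetase genes, whose products activate the nuclease RNase L, gave 1 called gene of 5. Oasl1, a family member without synthetase activity that represses translation of Irf7, lies on chromosome 5 from 114923240 to 114937915 (plus strand). It read 6.96, 5.46 and 6.79 CPM in WT and 3.98, 4.11 and 3.97 CPM in S100a16KO+/- libraries. The S100a16KO+/- libraries were close together and all lower, with a log2 fold change of -0.67 (standard error 0.14, edgeR adjusted p = 0.00339). Its neighbour Oasl2, on the same strand, overlapped between genotypes at 1.11 to 1.86 and 1.37 to 1.89 CPM. Oas1a, Oas2 and Oas3 were at 8 to 118 counts and were not called, and 68.8% of the words of Oas1a occur in other genes, chiefly Oas1g.

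None of the 4 IFIT genes, whose products bind foreign RNA ends, was called by edgeR or by DESeq2, and 0 had an unadjusted p under 0.05. Ifit1 was at 1.41 to 2.14 CPM in WT and 0.949 to 1.71 CPM in S100a16KO+/- libraries, and Ifit2 at 1.27 to 2.06 and 1.69 to 2.87 CPM. Both overlapped, with fitted differences of opposite sign. Ifit3 read 2.68 to 3.92 and 1.87 to 3.67 CPM, Ifit3b 0.597 to 1.10 and 0.902 to 1.08 CPM. Of the 31-base words of Ifit3, 61.8% occur in Ifit3b, so neither level is certain by itself. The 84 bases of their promoters that hold the response elements, before the RefSeq starts, are identical. The bases just after the RefSeq start of Ifit3b were found in no GENCODE M21 transcript of that gene.

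**Figure D4:**
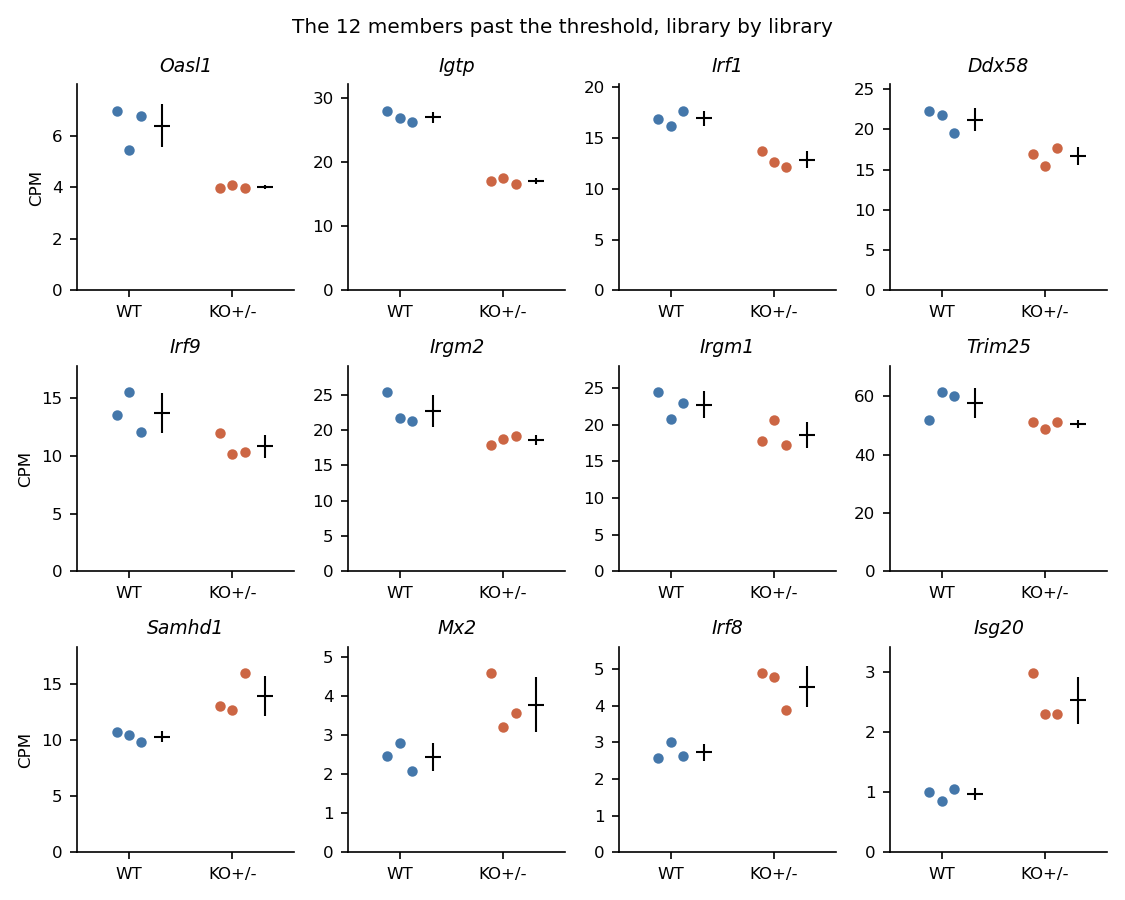
CPM of the 12 called members in every library, WT in blue and S100a16KO+/- (KO+/-) in orange, with the mean and SD of 3 libraries in black and each axis starting at 0. In all 12 panels the libraries of the genotypes do not overlap, with the narrowest gaps for Irf9, Irgm1 and Trim25 and the widest relative gap for Isg20. The 12 were picked as called in these same libraries, and 37.9% of all tested genes do not overlap either.

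Of the 6 restriction factor genes, 3 were higher, beside 11.6% of all tested genes. Isg20, an RNA exonuclease gene on chromosome 7 from 78913424 to 78920307 (plus strand), read 1.01, 0.852 and 1.05 CPM in WT and 2.97, 2.30 and 2.30 CPM in S100a16KO+/- libraries. Every S100a16KO+/- library was more than double the highest WT library, and the log2 fold change was 1.38 (standard error 0.23, edgeR adjusted p = 0.000559). Samhd1, which depletes the nucleotides needed for reverse transcription, read 10.7, 10.4 and 9.83 CPM in WT and 13.1, 12.7 and 15.97 CPM in S100a16KO+/- libraries (log2 fold change 0.43, standard error 0.11, edgeR adjusted p = 0.00916). Its groups lay apart, but without S100a16KO+/- replicate 3, the highest library, the adjusted p was 0.056.

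Mx2, a dynamin-like GTPase gene, read 2.46, 2.80 and 2.07 CPM in WT and 4.57, 3.21 and 3.55 CPM in S100a16KO+/- libraries, with a log2 fold change of 0.63 (standard error 0.19, edgeR adjusted p = 0.0305). It did not pass without S100a16KO+/- replicate 1 (adjusted p = 0.157), without S100a16KO+/- replicate 3 (0.061), without WT replicate 1 (0.074) or without WT replicate 3 (0.13). Mx1, its neighbour on chromosome 16, was at 28 to 60 counts in every library and overlapped between genotypes. Rsad2, which encodes viperin, read 2.90 to 3.70 CPM in WT and 2.97 to 4.01 CPM in S100a16KO+/- libraries and was not called. Bst2 had a log2 fold change of 0.01 (standard error 0.06) and was not called.

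Markers of several cell types other than hepatocytes were higher in the same libraries as the 4 higher members. The summed level of 5 pan-leukocyte markers ranged from 21.7 to 24.5 CPM in WT and from 27.8 to 31.8 CPM in S100a16KO+/- libraries, with Laptm5 of the 5 called higher. The 7 dendritic cell markers summed to 2.19 to 3.58 and 5.10 to 5.63 CPM, and 2 of 5 tested (Clec9a and Itgax) were higher. Mean levels in WT and S100a16KO+/- were 1.76 and 2.91 CPM for Clec9a, 0.360 and 1.20 CPM for Itgax, and 0.464 and 0.505 CPM for Ccr9. Siglech, Flt3, Cd209a and Xcr1 had a count of 0 in at least 1 library and never more than 29, so the sum rests mainly on Clec9a and Itgax. The 12 Kupffer cell and macrophage markers summed to 176 to 205 and 208 to 227 CPM, 4 of them higher (Marco, C1qb, Cd68 and Lyz2), while Clec4f and Vsig4 were not called. The largest of these sums was that of the 9 sinusoidal endothelial markers, 270 to 283 and 399 to 423 CPM, 8 of them higher and Lyve1 lower, and the 8 stellate cell markers summed to 40.3 to 44.4 and 72.6 to 78.3 CPM, 4 of them higher. The 8 neutrophil markers summed to 3.73 to 5.61 and 5.96 to 7.45 CPM with 0 of 5 tested called by edgeR and 1 at an unadjusted p under 0.05, and the 12 T, B and NK cell markers overlapped between genotypes. No marker of these lists was at 0 in all libraries. However, 1 dendritic cell marker (Xcr1) and 3 neutrophil markers (Ly6g, Camp and Ngp) did not exceed 12 counts in any library, the limit that a count of 0 would allow. The part of these cells in the levels of Irf8, Isg20, Mx2 and Samhd1 was not tested.

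**Figure D5:**
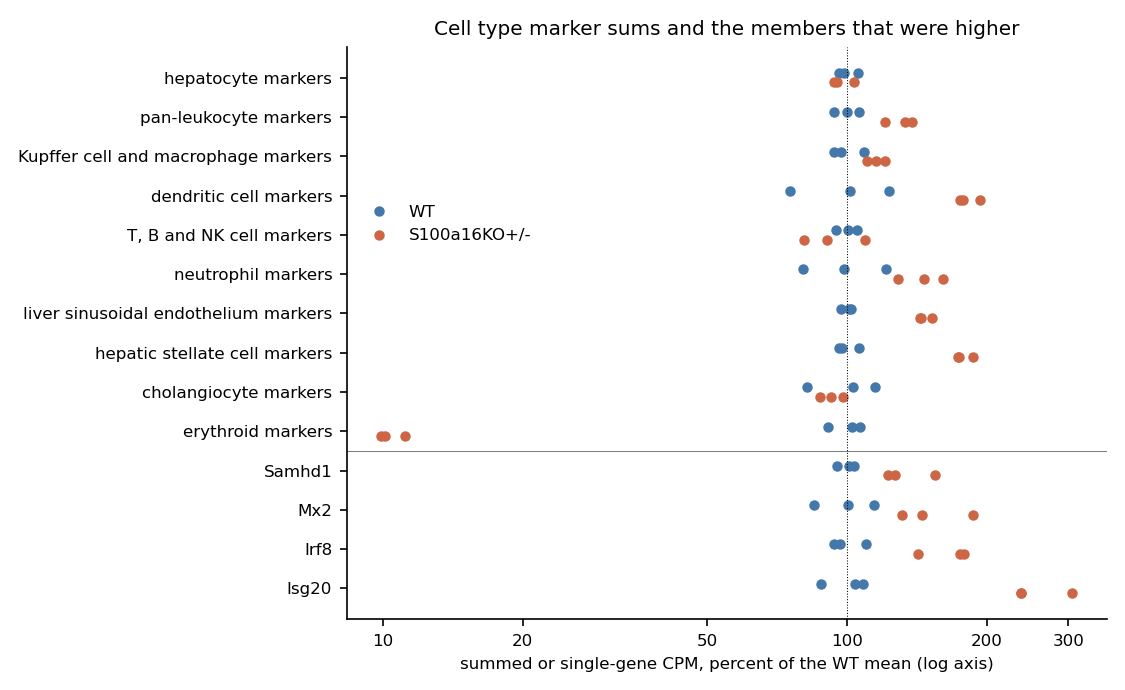
Summed CPM of each cell type marker list and CPM of the 4 higher members in every library, as a percent of the WT mean on a log axis. The 3 S100a16KO+/- libraries (orange) lie above the WT libraries (blue) for the leukocyte, Kupffer cell, dendritic, neutrophil, endothelial and stellate lists and for all 4 members. The hepatocyte, cholangiocyte and T, B and NK cell lists overlap, and the erythroid list lies near 10% of WT.

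Of the 6 genes of ISG15 conjugation and ADP-ribosylation, Trim25 was called. It encodes the ubiquitin ligase that activates RIG-I and read 52.0, 61.4 and 60.3 CPM in WT and 51.3, 48.8 and 51.1 CPM in S100a16KO+/- libraries. The groups were separated by less than 1 CPM, with a log2 fold change of -0.20 (standard error 0.07, edgeR adjusted p = 0.0471). Leaving out any library but WT replicate 1 ended this call, with adjusted p-values from 0.0926 (without S100a16KO+/- replicate 1) through 0.102 (without S100a16KO+/- replicate 3), 0.107 (without S100a16KO+/- replicate 2) and 0.174 (without WT replicate 3) to 0.192 (without WT replicate 2). Isg15, the ubiquitin-like modifier itself, read 1.95 to 2.88 CPM in WT and 1.62 to 2.37 CPM in S100a16KO+/- libraries, and Usp18, which removes it, 5.30 to 6.78 and 5.74 to 6.53 CPM; neither was called. Parp9 and its partner ligase gene Dtx3l, which overlap on opposite strands and are transcribed apart from each other, and Parp14 were not called. Parp9 was without overlap below, and Parp14 without overlap above, the WT libraries.

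The 5 remaining interferon-inducible genes were not called. Xaf1, a proapoptotic gene, came closest, with 2.20, 2.02 and 3.02 CPM in WT and 1.49, 1.82 and 1.80 CPM in S100a16KO+/- libraries, no overlap and an edgeR adjusted p of 0.131. Ifi27, a mitochondrial protein gene and the third most abundant member, varied widely, with 24.1, 30.6 and 32.7 CPM in WT and 26.8, 19.7 and 27.9 CPM in S100a16KO+/- libraries. Its genotypes overlapped, and the log2 fold change was -0.23 (standard error 0.16). Ifi35, Ifi44 and Ifi27l2a overlapped as well, the last of them at 23 to 36 counts.

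Other interferon-induced genes, which are no members, were called in both directions. Of 97 tested, 10 were higher and 8 lower, beside 11.6% higher and 11.2% lower of all tested genes, and their median log2 fold change was -0.02. The largest called differences were those of Ifitm1, an entry inhibitor (0.527, 0.923 and 0.994 CPM in WT, 1.96, 2.47 and 2.29 CPM in S100a16KO+/-; log2 fold change 1.46), and Gbp11 (10.9, 12.8 and 13.8 CPM in WT, 33.7, 30.1 and 36.8 CPM in S100a16KO+/-; log2 fold change 1.42). Of the words of Gbp11, 34.3% occur in other genes. Sp100, a nuclear body protein gene, and Ifi47, an immunity-related GTPase gene on chromosome 11, were higher by 0.97 and 0.76 on the log2 scale. Ifi47 thus differed in the direction opposite to Igtp, Irgm1 and Irgm2. Of 4 interferon-induced chemokine genes, Cxcl11 was lower, with 4.30, 4.65 and 4.71 CPM in WT and 1.80, 1.898 and 2.47 CPM in S100a16KO+/- libraries (log2 fold change -1.14, standard error 0.18, edgeR adjusted p = 0.000265). Cxcl9, Cxcl10 and Ccl5 were not called.

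Class I antigen presentation is another interferon-responsive group. Of 20 genes tested, 11 were higher and 1 was lower, beside 11.6% and 11.2% of all tested genes, and the median log2 fold change was 0.19. Tap1, a subunit of the peptide transporter, had 20.8, 21.6 and 19.1 CPM in S100a16KO+/- and 14.7, 15.9 and 16.2 CPM in WT libraries, a log2 fold change of 0.39 (standard error 0.08, edgeR adjusted p = 0.00374). Psmb8, an immunoproteasome subunit, H2-Q4, a class I gene, and Tapbpl, a peptide editor, were higher by 0.37, 0.36 and 0.31 on the log2 scale, and 38.4% of the words of H2-Q4 occur in other genes. Psme2, a proteasome activator subunit, was the gene that was lower, with a log2 fold change of -0.30, and 33.5% of its words occur in other genes. The Psmb8 call was lost without WT replicate 1 and 3 (adjusted p = 0.0892 and 0.051) and without S100a16KO+/- replicate 1 and 3 (0.0654 and 0.0681). The Tapbpl call was lost without WT replicate 1 and 2 (0.0838 and 0.148) and without S100a16KO+/- replicate 1 and 2 (0.0706 and 0.115). The Psme2 call was lost without WT replicate 2 and 3 (0.0928 and 0.12) and without S100a16KO+/- replicate 1 and 2 (0.0871 and 0.0675). The endothelial, dendritic and leukocyte marker sums given above were higher in the same libraries, and their part in these levels was not tested.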

How the data were processed

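RNA-seq of primary hepatocytes was available for 3 WT and 3 S100a16KO+/- libraries of alcohol-fed mice, grouped by the genotype label. Per the labels, poly(A) RNA was sequenced as strand-specific pairs with molecular identifiers. The submitters' processing notes name cutadapt 1.9, HISAT2 2.0.4, UMI-tools, StringTie 1.3.4d, DESeq2, edgeR and mm10. The authors deposited 1 table with an estimated count, not scaled for depth, and an FPKM value, scaled for transcript length and depth, for each gene and library. All estimated counts are whole, and values at multiples of 4 are over-represented, so about 4 counts may stand for 1 fragment, and 12 counts is then the limit that a count of 0 would allow. Such limits cover counting error only. The table's columns of functional terms were not used.

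Counts were compared with edgeR 4.0.16 (R 4.3.3): TMM scaling, filterByExpr, quasi-likelihood fit, two-sided, no covariate, Benjamini-Hochberg adjustment over 15957 tested genes. The members and lists were chosen with earlier results of these data known. Values in every library are given for called members and for the 5 most abundant; of each pathway list at most 4 called genes with the largest difference are named, and every tested receptor and kinase. Tbk1, Psme2, Socs1 and other genes outside this rule were named after their values were seen. One gene of the pathway lists is not reported here. Other members are given by ranges. Shared sequence is the percent of a gene's 31-base words, from GENCODE M21 transcripts, found in transcripts of another gene. Promoters are RefSeq windows on GRCm38.p6. The script for the test was checked on simulated counts.

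Same-numbered libraries of the genotypes were not correlated in their deviations from the group means (r of -0.0472, -0.0237 and 0.0519), so they were treated as unpaired. Alternative settings were a block for the replicate number, each library left out, DESeq2 1.42.0, limma 3.58.1 on log2(FPKM + 1) and log2(FPKM + 0.1) at a mean FPKM of at least 1, median-ratio size factors, library totals only, no filter, a mean of at least 40 counts, counts divided by 4, and looser motifs.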

Additional observations from a re-analysis of the deposited data

How the results depend on the processing

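Igtp, Irf1 and Oasl1 were called in all 15 alternatives for counts and FPKM, and Irf8 and Isg20 in all 13 in which they were tested; limma at a mean FPKM of at least 1 left Irf8, Isg20 and Mx2 out. The members called numbered 12 in the analysis reported, 5 of 26 tested with limma on log2(FPKM + 1) and 5 with log2(FPKM + 0.1) (Igtp, Irf1, Irgm1, Irgm2 and Oasl1), and from 6 (without S100a16KO+/- replicate 3) to 10 when 1 library was left out. With limma 19.2% of tested members were called, beside 24.6% and 24.4% of all tested genes. The member share was also the smaller with the replicate block (18.6% beside 19.3%) and without S100a16KO+/- replicate 3 (13.95% beside 17.4%). In the other settings it was the larger, for example with counts divided by 4 (30% beside 29.7%). With no filter it was 27.9% beside 13.8%, and the same with DESeq2. There the background runs over 25718 and 25701 genes rather than 15957, and it includes genes that the filter on low counts left out. The genes called with no filter numbered 3548, against 3643 in the analysis reported. Limma gave 0 members meeting the study's criterion with either pseudocount, 2228 and 2208 tested genes called, and 21 and 21 pathway genes called, against 43 with edgeR; it tested fewer genes. With library totals only, 27 pathway genes were called, and with 1 library left out 27 to 32. With the replicate block 8 members and 3082 genes were called; Irf9, Irgm1, Irgm2 and Trim25 lost their calls, and the same-numbered libraries share only a number. All 12 called members kept their direction in every alternative in which they were tested. The log2 fold change of Bst2, not called, reversed when 1 library was left out (from -0.0355 to 0.042), as did those of Ifnar2 (from -0.0201 to 0.0891) and Jak2 (from -0.152 to 0.0233). The gamma-activated site occurred in 18 members with 2 to 4 bases between its arms, and the response element in 19 with its last letter open. Members with fewer than 100 counts had standard errors that hide all but large differences. Limma tested Ddx58, Irf9, Samhd1 and Trim25 and did not call them. The cause of the changes between settings was not tested.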
